A study of Rattus norvegicus with 6 samples.

Results

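The transcripts described here are the assembled lncRNA transcripts of rat condylar cartilage whose exons share a splice junction or overlap with an annotated gene. They were taken from the lncRNA file as every transcript with class code j, o or x, an assembled (MSTRG) transcript ID and a mean of at least 0.1 FPKM (fragments per kilobase of transcript, scaled to the size of the library) over the 6 libraries. This gave 1539 transcripts among the 15530 in the file, with 504 of class j, 511 of class o and 524 of class x. Before the minimum there were 1569 such transcripts, and all later comparisons rest on the 12621 lncRNA transcripts of any class that reached it. At the border, MSTRG.23393.3 (Mir6332, class o) was just inside with a mean of 0.103 FPKM. MSTRG.17570.1 (Zbtb24, class x) and MSTRG.4945.6 (Sparc, class x) were just outside with 0.0954 and 0.0943 FPKM.

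The UAC group consisted of 3 libraries from rats with a unilateral anterior crossbite, a dental device that shifts the bite and loads the temporomandibular joint abnormally. The CON group consisted of 3 libraries from control rats. All were female Sprague-Dawley rats, aged 6 weeks at the start, and condylar cartilage was taken 8 weeks later. How many animals went into a library is not stated in the sources used here, so the p-values measure the spread between these libraries. Gene count totals were 71524713 to 86523541 in the UAC libraries and 80960444 to 85923949 in the CON libraries. The cartilage markers Col2a1, Acan and Comp were present in every library, with Col2a1 at 1014 to 1972 FPKM in UAC and 1182 to 1909 FPKM in CON. The skeletal and cardiac muscle list summed to 434 FPKM in UAC library 1, against 63.4 and 64.7 FPKM in the other UAC libraries and 141 to 280 FPKM in the CON libraries.

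A class code says how an assembled transcript lies relative to the annotation. Class j is a spliced isoform that shares at least 1 junction with an annotated transcript but differs elsewhere. Class o is another exonic overlap on the same strand, and class x is an exonic overlap on the opposite strand, the arrangement of a natural antisense transcript. Of the 524 class x transcripts, 519 lie opposite to the gene row used here and 5 lie on the same strand as it, including 3 of AABR07054266. Isoforms without a usable reading frame arise by intron retention, alternative first exons and read-through, and antisense transcripts often start near the promoter or the end of the gene on the other strand. In cartilage the annotated partners include the collagens and proteoglycans of the matrix, the factors that control chondrocyte hypertrophy, and host transcripts of microRNAs. In each row the lncRNA file gives the symbol of the overlapped gene, called the named gene here. A named gene row that overlaps the transcript was found for all 1539.

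All 3 classes were spliced and of moderate level. Median length was 2500 bases in class j, 2014 in class o and 981 in class x, against 692.5 bases for the intergenic class u and 1727 bases for the intronic class i. Class j had a median of 3 exons and class o and x a median of 2. Only 23 of the 1539 had a single exon, all of class x, whereas 4287 of the 5382 transcripts of class u did. Every one of the 1539 had a strand, while 5400 of the 7914 assembled single-exon transcripts of the whole file had none. An assembler can read the strand from the splice sites, which the 23 single-exon transcripts of class x lack. How these 23 got a strand is not stated in the sources used here. Whether the libraries kept strand is not stated in the sources used here, so reads of a gene and of a class x transcript over it cannot be told apart. The median over transcripts of the mean FPKM was 2.03 in class j, 1.92 in class o and 2 in class x, against 1.46 over the other tested transcripts. A value of 1 FPKM stood for a mean read coverage of 5.89 to 7.10 per base.

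The file lists absent transcripts at 0.0001 FPKM, its floor, and the counts here take values up to 0.001 FPKM as floor. Above the floor in all 6 libraries were 420 of class j (83.3%), 423 of class o (82.8%) and 424 of class x (80.9%), and 89.0% of the other tested transcripts. At least 90% of the summed FPKM came from 1 library in 20 of class j, 32 of class o and 38 of class x, which is 3.97%, 6.26% and 7.25% of these classes, against 1.40% of the others and 1.94% of all tested; these shares were not tested against each other. These 90 transcripts were spread over all libraries, with 17, 17 and 12 in UAC libraries 1, 2 and 3 and 17, 12 and 15 in CON libraries 1, 2 and 3. The extreme cases were abundant. MSTRG.24098.1, a class o transcript named for U1, was at 7366 FPKM in UAC library 2 and at the floor in the other 5 libraries, while the U1 gene row that holds it was at 8107, 7977 and 8238 FPKM in UAC and 7649, 6784 and 5146 FPKM in CON. MSTRG.17871.1 (AC098064, class o) was at 2605 FPKM in CON library 3 and at no more than 0.325 FPKM elsewhere. MSTRG.16150.1 (class j), an isoform of S100a9, the neutrophil calcium-binding protein, was at 162 FPKM in UAC library 1 and at the floor elsewhere, although the S100a9 gene was at 691 to 1495 FPKM in UAC and 747 to 890 FPKM in CON.

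The share of all lncRNA signal held by each class was compared between the groups. Class j held 7.57%, 4.68% and 5.57% of the summed FPKM of tested lncRNA transcripts in the UAC libraries and 7.71%, 6.31% and 5.78% in the CON libraries. Class o held 14.2%, 33.4% and 16.9% in UAC and 21.1%, 17.9% and 23.5% in CON. Class x held 9.84%, 7.47% and 12.5% in UAC and 10.2%, 8.47% and 8.33% in CON. The groups overlapped in every class, with UAC minus CON differences of -0.66, 0.67 and 0.94 percentage points and p = 0.5, 1 and 0.7 in an exact two-sided permutation test over 3 against 3 libraries, whose smallest possible p is 0.1. The class o share of UAC library 2 contains the U1 transcript described above, and without that library the class o difference was -5.29 points. That difference still includes CON library 3, where MSTRG.17871.1 held 2605 of the 8482 FPKM summed over class o.

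In the comparison of UAC with CON, each transcript was tested by limma on log2(FPKM + 0.1) over all 12621 transcripts, with Benjamini-Hochberg adjustment. None of the 1539 reached an adjusted p under 0.05, as 0.00792% of all tested transcripts did, and a robust limma fit also called 0. At an unadjusted p under 0.05, 82 were higher and 39 were lower in UAC, against 5.25% and 2.01% of all tested transcripts. The study's thresholds, an unadjusted p under 0.05 with a log2 fold change beyond 1 in either direction, were met by 11 higher and 9 lower in class j, 9 higher and 6 lower in class o, and 13 higher and 4 lower in class x. These are 2.18% and 1.79% of class j, 1.76% and 1.17% of class o, and 2.48% and 0.763% of class x, beside 1.93% higher and 0.864% lower over all tested transcripts. Higher and lower transcripts split otherwise under quantile normalization, where there were 9 higher and 13 lower in class j, 8 and 9 in class o, and 10 and 6 in class x. The median log2 fold change was 0.05 in class j, 0.09 in class o and 0.07 in class x, against 0.09 over all. All UAC values lay above all CON values for 38 of class j, 56 of class o and 47 of class x, and below for 24, 14 and 22, where 11.1% and 3.61% of all tested transcripts did so. Most of these shares are near or below the background, and their differences from it were not tested.

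**Figure D1:**
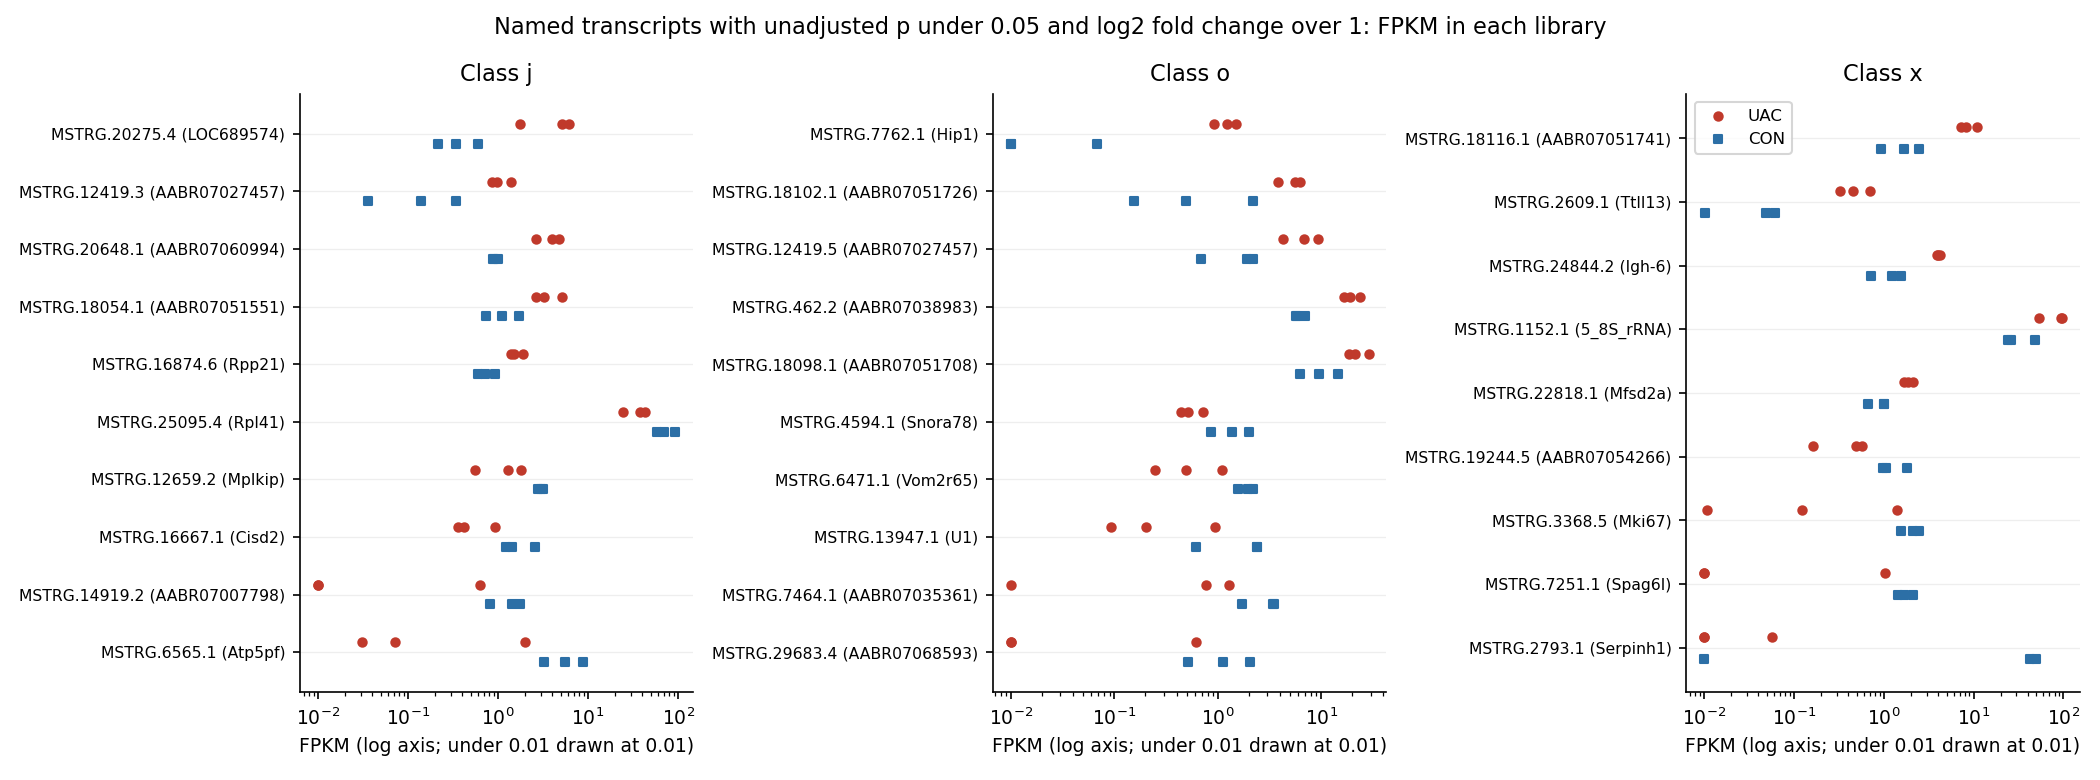
FPKM in each library (log axis) of the transcripts with the smallest p in each direction among those at the study's thresholds, by class, with UAC as circles above CON as squares and values under 0.01 FPKM drawn at 0.01. MSTRG.462.2 sits at 16.4 to 23.5 FPKM in UAC, above its CON values of 5.72 to 7.02 FPKM, and MSTRG.7762.1 at 0.914 to 1.51 FPKM in UAC, above its CON values of at most 0.068 FPKM.

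MSTRG.20275.4 was among the 5 class j isoforms with the smallest p for a higher level in UAC. This 1016-base transcript of LOC689574 (chromosome 4, 62784159 to 62790357, plus strand; the genome build is not stated in the sources used here) was at 6.13, 1.75 and 5.08 FPKM in UAC and 0.601, 0.217 and 0.344 FPKM in CON. The groups did not overlap, with a log2 fold change of 3.08 (SE 0.54) and an adjusted p of 0.38 by limma. The gene row was at 5.73 to 7.83 FPKM in UAC and 6.20 to 7.28 FPKM in CON. MSTRG.16874.6, an isoform of Rpp21, a protein subunit of the RNase P that trims transfer RNA precursors, was at 1.41, 1.92 and 1.52 FPKM in UAC and 0.711, 0.928 and 0.599 FPKM in CON. The Rpp21 gene had 2.36 to 2.89 FPKM in UAC and 3.06 to 3.19 FPKM in CON, so the isoform and its gene lay on opposite sides of their CON values.

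The 5 class j isoforms with the smallest p for a lower level in UAC came from Atp5pf, Cisd2, Mplkip, Rpl41 and AABR07007798. MSTRG.6565.1, an isoform of Atp5pf, a subunit of ATP synthase, was at 2, 0.0715 and 0.0308 FPKM in UAC and 8.85, 5.58 and 3.26 FPKM in CON. Its log2 fold change was -3.94 (SE 1.07, adjusted p 0.66 by limma), while the Atp5pf gene was at 9.86 to 11.3 FPKM in UAC and 7.83 to 13.6 FPKM in CON. MSTRG.16667.1, an isoform of Cisd2, an iron-sulfur protein of the endoplasmic reticulum and mitochondria, was at 0.924, 0.362 and 0.424 FPKM in UAC and 2.60, 1.23 and 1.45 FPKM in CON. MSTRG.12659.2 of Mplkip was at 1.78, 0.554 and 1.31 FPKM in UAC and 3.14, 2.81 and 3.03 FPKM in CON, again with groups apart. MSTRG.14919.2 of AABR07007798, was at the floor in UAC library 1 and at 0.000492 and 0.635 FPKM in the other UAC libraries, against 0.818, 1.42 and 1.77 FPKM in CON. Among the class j isoforms above, MSTRG.14919.2 kept its call in 9 of 14 other settings and Rpp21 in 10 of 15, where MSTRG.16874.6 of Rpp21 lost it under both other scalings.

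Isoforms of 1 assembled gene could differ in opposite directions. Cdv3 had 3 class j isoforms, chosen for description after their values were seen. MSTRG.28073.1 was at 4.80, 1.02 and 3.51 FPKM in UAC and 0.421, 0.789 and 0.223 FPKM in CON, with a log2 fold change of 2.35. MSTRG.28073.3 was at 3.67, 6.12 and 12 FPKM in UAC and 17.6, 17.5 and 11.5 FPKM in CON, with a log2 fold change of -1.22. MSTRG.28073.2 was at 3.73, 1.49 and 3.50 FPKM in UAC and 1.18, 1.03 and 1.87 FPKM in CON. The groups were apart only for MSTRG.28073.1. All 3 had an unadjusted p under 0.05 (adjusted p 0.66 to 0.68 by limma), and the Cdv3 gene as a whole was at 6.44 to 14.3 FPKM in UAC and 9.38 to 12.4 FPKM in CON.

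Rpl41, a small protein of the large ribosomal subunit, had 4 class j isoforms. MSTRG.25095.4 was at 37.7, 42.8 and 24.4 FPKM in UAC and 69.7, 93.2 and 58.4 FPKM in CON, with groups apart and a log2 fold change of -1.09 (SE 0.28, adjusted p 0.66 by limma). MSTRG.25095.2 and MSTRG.25095.3, outside the naming rule, reached 335 and 101 FPKM in UAC library 1 and at most 0.879 FPKM in any other library. The gene row stayed at 238 to 302 FPKM in UAC and 214 to 271 FPKM in CON. Rpl41 has processed copies elsewhere in mammalian genomes, so the division of its reads is uncertain.

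**Figure D2:**
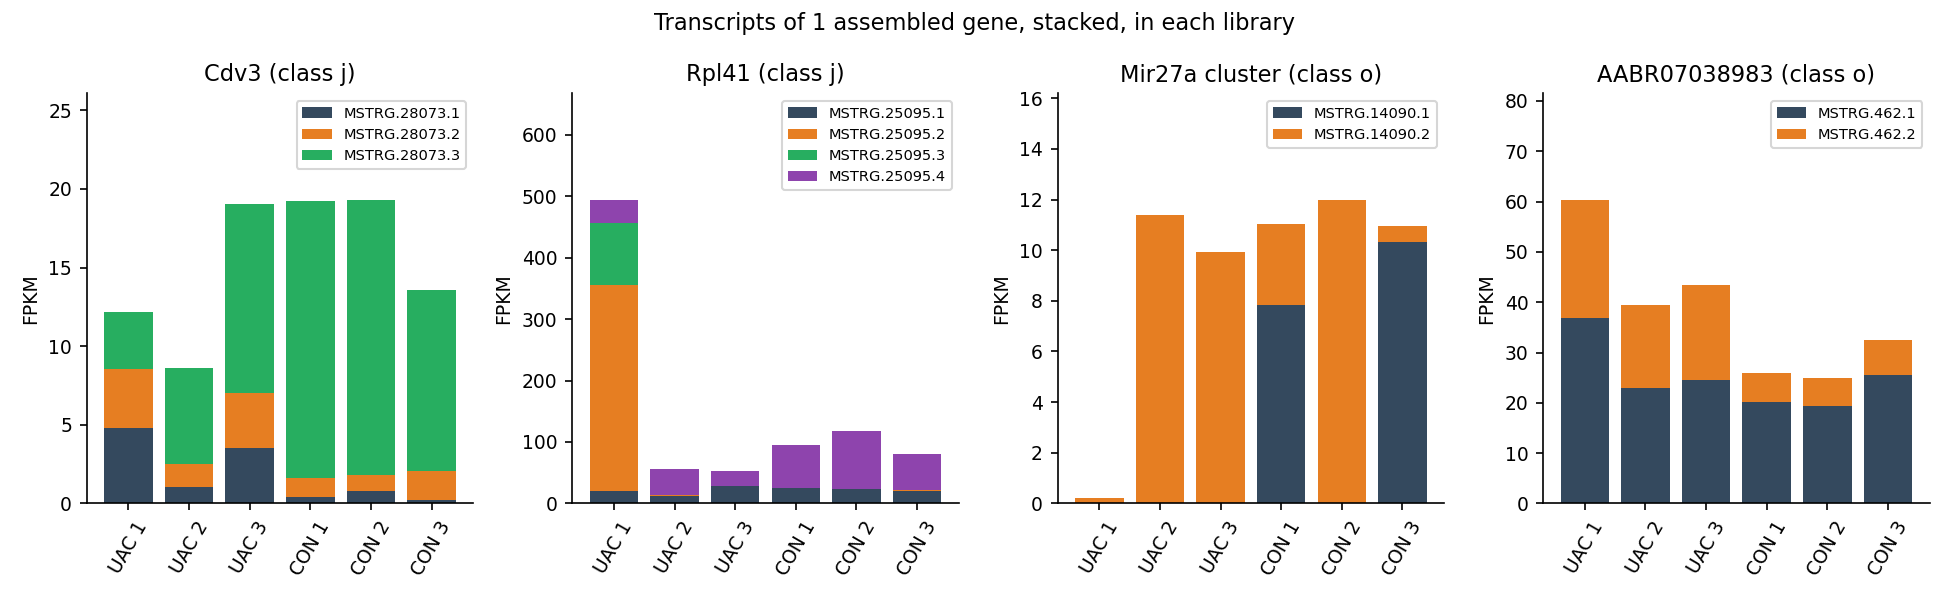
Stacked FPKM of the transcripts of 4 assembled genes in each library, UAC libraries at the left. For AABR07038983 the MSTRG.462.2 part is 16.4 to 23.5 FPKM in UAC and 5.72 to 7.02 FPKM in CON, and for Rpl41 UAC library 1 alone carries 335 FPKM of MSTRG.25095.2.

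A pair of the lncRNAs that the study followed by RT-qPCR could be matched by transcript ID, and both were of class j. By RT-qPCR the study reported significantly lower levels in UAC for both of them and for its Ufm1 lncRNA. MSTRG.16142.1 overlaps Chtop, a chromatin target of an arginine methyltransferase, on chromosome 2 (189887776 to 189903219, minus strand). It was at 0.975, 2.71 and 1.28 FPKM in UAC and 10.4, 9.85 and 1.07 FPKM in CON, so that CON library 3 lay within the UAC range. The log2 fold change was -1.62 (SE 0.89, adjusted p 0.71 by limma). The gene row, which also carries S100a1, was at 5.87 to 11.2 FPKM in UAC and 6.60 to 10.9 FPKM in CON. MSTRG.2214.2 belongs to Cox7a1, the heart and muscle form of a cytochrome c oxidase subunit. It was at 0.0263, 0.0127 and 0.0141 FPKM in UAC and 10.7, 3.75 and 0.0126 FPKM in CON. Its log2 fold change was -3.83 (SE 1.64, adjusted p 0.68 by limma), and CON library 3 was as low as the UAC libraries. The other Cox7a1 isoform, MSTRG.2214.1, was at 13.1, 9.88 and 16.2 FPKM in UAC and 4.53, 8.56 and 12.3 FPKM in CON, and the 2 together gave 9.89 to 16.2 FPKM in UAC and 12.3 to 15.2 FPKM in CON. The part of the muscle signal given above in the Cox7a1 values was not tested. A transcript of Ufm1, a ubiquitin-like modifier, could not be matched by ID. Of the 2 class j transcripts named for it, both chosen after their values were seen, MSTRG.15669.1 was at 0.156, 1.05 and 0.644 FPKM in UAC and 3.85, 1.13 and 3.15 FPKM in CON, with a log2 fold change of -2.06 (SE 0.69, adjusted p 0.68 by limma). MSTRG.15669.3 was at 2.55 FPKM in UAC library 1 and at the floor in the other 5 libraries, and the Ufm1 gene was at 2.86, 7.71 and 9.35 FPKM in UAC and 8.00, 8.64 and 8.41 FPKM in CON.

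The 5 most abundant class j transcripts did not meet the study's thresholds. MSTRG.12132.1 (AABR07026997) was at 146 to 153 FPKM in UAC and 111 to 133 FPKM in CON, with groups apart and a log2 fold change of 0.28 (SE 0.40, adjusted p 0.85 by limma). The limma fit draws each SE toward that of transcripts of similar level, which is wide among the most abundant. It gave an SE of 5.19 to MSTRG.3657.4 below. For such transcripts the adjusted p-values say little about their own spread between libraries. MSTRG.15123.1, an isoform of Selenop, the plasma carrier of selenium, was at 101 to 128 FPKM in UAC and 107 to 124 FPKM in CON. Its gene had 99.9 to 127 FPKM in UAC and 106 to 123 FPKM in CON, so the isoform and the gene row were at nearly the same level. MSTRG.584.1 (AABR07039356) was at 79.3 to 87.8 FPKM in UAC and 78.7 to 94.8 FPKM in CON. MSTRG.29375.2, of the ribosomal protein gene Rpl37a, was at 76.3 to 90.4 FPKM in UAC and 20.3 to 100 FPKM in CON, where CON library 1 was the low one. MSTRG.3657.1 of AC134224 differed widely between libraries of a group, at at 32.7, 4.85 and 43.4 FPKM in UAC and 845, 37.0 and 0.151 FPKM in CON. The class o isoform of the same locus, MSTRG.3657.4, was at 965, 1351 and 1056 FPKM in UAC and 520, 982 and 1059 FPKM in CON, lowest in the CON library where MSTRG.3657.1 was highest. Among the other most abundant class o transcripts, MSTRG.9663.2 was at 316, 508 and 407 FPKM in UAC and 590, 552 and 372 FPKM in CON, and MSTRG.9666.2 at 510, 448 and 495 FPKM in UAC and 1390, 390 and 425 FPKM in CON. In class x, MSTRG.5092.2, antisense to the ubiquitin gene Ubb, was at 124, 97.8 and 94.7 FPKM in UAC and 118, 101 and 141 FPKM in CON.

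In class o the smallest p of all 1539 belonged to a locus on the X chromosome. MSTRG.462.2 (AABR07038983; X, 65365181 to 65368639, plus strand; 2 exons, 3119 bases) was at 23.5, 16.4 and 18.9 FPKM in UAC and 5.82, 5.72 and 7.02 FPKM in CON. The groups were well apart, with a log2 fold change of 1.64 (SE 0.15, adjusted p 0.0987 by limma). MSTRG.462.1 ends at the same base and starts at 65364301, and it was at 36.9, 22.9 and 24.6 FPKM in UAC and 20.2, 19.3 and 25.4 FPKM in CON, where the groups overlapped. The gene row, which also carries Mir223, the gene of a microRNA known from myeloid cells, was at 33.9 to 52.2 FPKM in UAC and 21.7 to 28.1 FPKM in CON (log2 fold change 0.73, adjusted p 0.45 by edgeR). Relative to the gene row, MSTRG.462.2 was higher in UAC by 0.88 on the log2 scale (SE 0.07, adjusted p 0.0609) and MSTRG.462.1 was lower, at -0.40 (SE 0.04, adjusted p 0.16, both by limma). The list of myeloid cell and osteoclast genes, with 30 of 30 in the gene file, summed to 7520, 5506 and 6497 FPKM in UAC and 5427, 5594 and 6258 FPKM in CON. It had 8 genes higher and 6 lower in UAC with an unadjusted p under 0.05 and 0 with an adjusted p under 0.05 by edgeR, at a median log2 fold change of 0.21. The share of all genes at this unadjusted threshold was not computed, so the 8 and 6 have no background beside them. The part of these cells in the MSTRG.462.2 values was not tested.

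MSTRG.7762.1 was the next class o transcript, named for Hip1, a clathrin adaptor of endocytosis (chromosome 12, 24170350 to 24236676). It was at 1.22, 1.51 and 0.914 FPKM in UAC and at 0.068 FPKM or the floor in CON, with a log2 fold change of 3.44 (SE 0.58, adjusted p 0.34 by limma). The Hip1 gene was at 12.5 to 13 FPKM in UAC and 12.1 to 13.8 FPKM in CON. The 5 lower class o transcripts of the naming rule had no library above 3.50 FPKM. MSTRG.6471.1 (Vom2r65, a pheromone receptor gene listed at the floor in all 6 libraries) was at 1.10, 0.248 and 0.495 FPKM in UAC and 2.20, 1.57 and 1.96 FPKM in CON. MSTRG.4594.1, named for the small nucleolar RNA Snora78, was at 0.510, 0.725 and 0.444 FPKM in UAC and 0.862, 1.37 and 2.02 FPKM in CON. MSTRG.7464.1 (AABR07035361), MSTRG.13947.1 (U1) and MSTRG.29683.4 (AABR07068593) each had a UAC library at or under 0.0921 FPKM, and the groups overlapped in the last 2. MSTRG.6471.1 kept its call in 13 of 15 other settings, MSTRG.4594.1 and MSTRG.13947.1 in 9 of 15, and MSTRG.7464.1 and MSTRG.29683.4 in 9 of 14. Each of the last 4 lost it without each of 4 single libraries, and MSTRG.4594.1 and MSTRG.13947.1 also under the replicate block.

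Class o held most of the transcripts named for microRNA genes, 25 of 27, with the other 2 in class x. MicroRNAs are cut from longer host transcripts, so the class o transcripts over them are called hosts here, and a mature microRNA finds its targets mainly through its seed, bases 2 to 8. The mature sequences of the main loci, from RefSeq (GRCr8), are shown because let-7b and let-7c share a seed, as do miR-195 and miR-322, with the seed in capitals; 14 of the 15 names had an entry. The mature miR-223 is added for the row of MSTRG.462.2. The let-7b and let-7c-2 genes lie in the same host on chromosome 7, another let-7c gene lies in a host on chromosome 11, and miR-195 and miR-322 lie in separate hosts on chromosomes 10 and X.
let-7b-5p: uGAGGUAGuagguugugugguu
let-7c-5p: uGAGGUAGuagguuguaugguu
miR-195-5p: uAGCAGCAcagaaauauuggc
miR-322-5p: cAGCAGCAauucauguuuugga
miR-27a-3p: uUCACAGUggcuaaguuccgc
miR-24-3p: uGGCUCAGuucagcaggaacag
miR-23a-3p: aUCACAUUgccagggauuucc
miR-143-3p: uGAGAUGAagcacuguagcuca
miR-145-5p: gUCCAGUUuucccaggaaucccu
miR-181b-5p: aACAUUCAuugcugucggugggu
miR-675-5p: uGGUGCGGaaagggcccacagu
miR-223-3p: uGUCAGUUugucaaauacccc

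Of the 27 transcripts, 1 was higher and 1 lower in UAC at an unadjusted p under 0.05, beside 5.25% and 2.01% of all tested transcripts, and the median log2 fold change was -0.05. The 6 transcripts of the let-7c-2 and let-7b host all had overlapping groups, the most abundant, MSTRG.26459.3, being at 4.09, 3.69 and 5.05 FPKM in UAC and 3.65, 4.26 and 4.08 FPKM in CON. The 5 class o transcripts of the chromosome 11 host, named for Mirlet7c1, overlapped as well, the most abundant, MSTRG.6537.4, being at 0.908, 0.838 and 1.51 FPKM in UAC and 1.01, 1.07 and 1.20 FPKM in CON. The hosts with the shared AGCAGCA seed, MSTRG.5224.1 (Mir195) and MSTRG.995.1 (Mir322), overlapped too. MSTRG.5224.1 was at 2.71, 3.35 and 2.60 FPKM in UAC and 3.68, 3.79 and 2.87 FPKM in CON, and MSTRG.995.1 was at 2.45, 3.78 and 3.29 FPKM in UAC and 3.61, 3.15 and 3.66 FPKM in CON. MSTRG.13622.1, the host of miR-143 and miR-145, microRNAs known from smooth muscle and other mesenchymal cells, was at 2.42, 2.51 and 2.77 FPKM in UAC and 3.10, 3.21 and 2.65 FPKM in CON.

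The most abundant host was MSTRG.3468.1, named for Mir675 (chromosome 1, 215744383 to 215747093, minus strand). It was at 30.8, 33.0 and 23.4 FPKM in UAC and 55.1, 38.1 and 31.6 FPKM in CON. The groups overlapped, with a log2 fold change of -0.49 (SE 0.24, adjusted p 0.69 by limma). MSTRG.8555.1 (Mir181b1) was the host transcript higher at an unadjusted p under 0.05, at 2.90, 2.13 and 1.76 FPKM in UAC and 1.54, 1.66 and 1.06 FPKM in CON. A more abundant model of the same host, MSTRG.8555.2, was at 0.563 to 4.83 FPKM in UAC and 0.958 to 4.245 FPKM in CON, with a log2 fold change of -0.10. The gene row of this host also overlapped, at 3.25 to 4.90 FPKM in UAC and 2.16 to 3.82 FPKM in CON. The Mir27a, Mir24-2 and Mir23a cluster had 2 class o models. MSTRG.14090.1 was at the floor in all 3 UAC libraries and in CON library 2, and at 7.85 and 10.3 FPKM in CON libraries 1 and 3. MSTRG.14090.2 was at 0.209, 11.4 and 9.94 FPKM in UAC and 3.19, 12 and 0.639 FPKM in CON. Added up, the cluster was at 0.209, 11.4 and 9.94 FPKM in UAC and 11.0, 12 and 11.0 FPKM in CON, so the CON libraries were even while UAC library 1 lacked the signal.

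Transcripts named for other short structural RNAs fell mainly in classes o and x. There were 15 named for 5.8S ribosomal RNA (11 of class x), 18 for U6, 9 for 7SK, 8 for U1 and 22 for small nucleolar RNAs. These symbols belong to multi-copy families, so the assignment of reads is uncertain, and ribosomal RNA had been depleted before sequencing. Of the 5.8S transcripts 2 were higher at the study's thresholds. MSTRG.1152.1 (class x, chromosome 1) was at 96.3, 53.5 and 93.6 FPKM in UAC and 48.8, 26.2 and 24.0 FPKM in CON, with groups apart and a log2 fold change of 1.32 (SE 0.36, adjusted p 0.66 by limma). MSTRG.22385.4 (class x, chromosome 5) was at 74.6, 117 and 457 FPKM in UAC and at 121 FPKM in CON library 1, with the other 2 CON libraries at the floor. Its groups overlapped, with a log2 fold change of 7.22 (SE 2.75, adjusted p 0.68 by limma). Of the 5 most abundant class x transcripts, 3 were named for 5.8S, MSTRG.22385.4 among them. MSTRG.22388.1 was at 332, 401 and 521 FPKM in UAC and 405, 506 and 379 FPKM in CON, and MSTRG.1159.1, with 1 exon, at 67.0, 211 and 177 FPKM in UAC and 100, 164 and 154 FPKM in CON, both with overlapping groups. The 15 transcripts summed to 871, 1264 and 1805 FPKM in UAC and 1057, 1033 and 893 FPKM in CON.

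Class x included most of the transcripts over matrix genes. All 13 transcripts for the bone matrix list were of class x, as were 8 of the 9 for the cartilage matrix list. None of the 16 gene lists had a transcript at the study's thresholds, and of the 74 transcripts on them 2 (2.70%) were higher and 0 lower in UAC at an unadjusted p under 0.05, beside 5.25% and 2.01% of all tested transcripts. The median log2 fold change of the 74 was 0.01. The median level was 0.394% of the gene in the cartilage matrix list and 0.281% in the bone matrix list. MSTRG.5771.1, antisense to Col1a1, the main collagen of bone, was at 50.3, 26.4 and 71.4 FPKM in UAC and 42.6, 43.8 and 43.5 FPKM in CON, under a gene at 12070 to 14400 FPKM in UAC and 14960 to 16940 FPKM in CON. MSTRG.4945.2, antisense to the end of Sparc, a collagen-binding matrix protein, was at 52.6, 77.5 and 4.23 FPKM in UAC and 55.7, 56.9 and 60.1 FPKM in CON. MSTRG.5773.1, a shorter antisense model over Col1a1, was at 47.2, 22.4 and 24.6 FPKM in UAC and 21.9, 31.1 and 35.0 FPKM in CON. MSTRG.16489.1, antisense to Col11a1 of the cartilage fibril, was at 2.29, 3.52 and 4.03 FPKM in UAC and 4.22, 3.77 and 3.48 FPKM in CON.

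Over the most highly expressed genes the antisense models were unevenly detected between libraries. Of 28 class x transcripts over a gene row of at least 1000 FPKM, 10 (35.7%) were above the floor in all 6 libraries and 9 (32.1%) drew 90% of their FPKM from 1 library, against 83.5% and 5.85% of the other 496. Their median level was 0.295% of the gene, against 29.2%. MSTRG.20026.1, over NEWGENE_621351, which the gene file describes as collagen type I alpha 2, was at 483 and 848 FPKM in UAC libraries 1 and 3, 544 FPKM in CON library 1 and the floor in the rest. MSTRG.26609.2 over Col2a1 was at 9.05 FPKM in UAC library 3 and at no more than 0.00233 FPKM elsewhere. Some antisense models over genes below 1000 FPKM were uneven too. MSTRG.2793.1 over Serpinh1, the collagen chaperone, was at the floor or 0.057 FPKM in UAC and at 49.9 and 42.1 FPKM in CON libraries 1 and 3 but at the floor in CON library 2. MSTRG.9282.1 over Ibsp, bone sialoprotein, was at 7.94 FPKM in CON library 1 and at the floor elsewhere, and MSTRG.26804.1 over the collagenase gene Mmp13 was at 3.56 FPKM in CON library 3 and at most 0.058 FPKM elsewhere. The Serpinh1 transcript met the study's thresholds as lower (log2 fold change -5.68, SE 2.35, adjusted p 0.68 by limma) with groups that overlapped, and it kept this call in 5 of 14 other settings. It lost it under a pseudocount of 0.01, the replicate block, no FPKM minimum and the robust fit, and without any 1 library other than CON library 2.

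Outside the matrix genes, several class x transcripts at the study's thresholds lay over genes with overlapping groups. MSTRG.2609.1, over Ttll13, a tubulin polyglutamylase whose gene row also carries AC114460 and the protein-coding gene Ngrn, was at 0.324, 0.459 and 0.705 FPKM in UAC and 0.0608, 0.0101 and 0.0494 FPKM in CON. This shared gene row was at 1.81 to 2.92 FPKM in UAC and 2.40 to 3.02 FPKM in CON. MSTRG.22818.1, over the lipid transporter Mfsd2a, was at 2.10, 1.84 and 1.70 FPKM in UAC and 0.994, 0.669 and 1.01 FPKM in CON. MSTRG.3368.5, over the proliferation marker Mki67, was at 1.39, 0.122 and 0.0106 FPKM in UAC and 2.45, 2.12 and 1.57 FPKM in CON, with Mki67 at 15.8 to 20.4 FPKM in UAC and 12.9 to 20.9 FPKM in CON. MSTRG.7251.1 (Spag6l, of sperm flagella) was at the floor in 2 UAC libraries and at 1.04 FPKM in the third, against 1.69, 2.12 and 1.44 FPKM in CON, and its gene was at the floor in all 6. MSTRG.19244.5 (AABR07054266, chromosome 3) was at 0.165, 0.485 and 0.567 FPKM in UAC and 1.07, 0.980 and 1.79 FPKM in CON, with groups apart, and lies on the same strand as its gene row. These calls were kept in 12 of 14 other settings for MSTRG.2609.1, 10 of 15 for MSTRG.22818.1, 10 of 15 for MSTRG.3368.5, 9 of 14 for MSTRG.7251.1 and 12 of 15 for MSTRG.19244.5. MSTRG.22818.1 lost its call under both other scalings, MSTRG.2609.1 under the replicate block, and MSTRG.3368.5 and MSTRG.7251.1 without each of 5 single libraries.

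By position on the gene, of the 524 class x transcripts, 323 lay inside the gene, 72 covered its start, 73 its end and 56 both ends. The median level relative to the gene was 20% for those inside, 30.9% at the start, 37.2% at the end and 239% for those covering both ends, with pairs whose gene lay under 0.1 FPKM included. These differences were not tested. MSTRG.28413.1, at the end of Ctnnb1 (beta-catenin, the effector of Wnt signaling), was at 103, 120 and 102 FPKM in UAC and 109, 110 and 113 FPKM in CON. It has 1 exon and spans 129627369 to 129628376 on chromosome 8, while the gene row ends at 129627372. The transcript thus lies almost wholly beyond the end of the gene. Ctnnb1 was at 142 to 165 FPKM in UAC and 161 to 163 FPKM in CON. MSTRG.9902.1, with 1 exon at the end of Fgfr3, a receptor that restrains chondrocyte growth, was at 13.1, 15.0 and 13.2 FPKM in UAC and 15.1, 14.5 and 16.8 FPKM in CON. MSTRG.17505.1 covers the start of Col10a1, the collagen of hypertrophic cartilage, at 1.57, 1.66 and 1.91 FPKM in UAC and 1.49, 1.32 and 1.76 FPKM in CON. MSTRG.29456.1, across the end of Irs1, an adaptor of insulin and IGF receptors, was at 5.33, 7.56 and 6.66 FPKM in UAC and 7.34, 6.61 and 7.17 FPKM in CON. MSTRG.26598.1, with 1 exon across the end of the deacetylase gene Hdac7, was at 10.3, 5.91 and 5.84 FPKM in UAC and 6.61, 7.69 and 6.53 FPKM in CON. MSTRG.14760.1, a 19637-base antisense transcript across the start of Mef2c, a transcription factor of chondrocyte hypertrophy, was at 5.38, 6.11 and 6.59 FPKM in UAC and 5.75, 5.57 and 5.74 FPKM in CON.

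Ccn2 was chosen after its values were seen. The gene, which encodes a matricellular growth factor of chondrocytes, was at 97.2, 163 and 90.3 FPKM in UAC and 62.8, 47.5 and 55.8 FPKM in CON (log2 fold change 1.04, SE 0.25, adjusted p 0.45 by edgeR), with groups apart. MSTRG.1269.1 (chromosome 1, 21853438 to 21877256, plus strand) was at 5.84, 4.07 and 5.58 FPKM in UAC and 4.76 and 4.34 FPKM in CON libraries 1 and 3, with CON library 2 at the floor. MSTRG.1269.2, the other model of the same assembled gene, was at 0.864, 1.53 and 1.20 FPKM in UAC and 0.717, 1.89 and 1.24 FPKM in CON, and the sum of both was 6.70, 5.59 and 6.77 FPKM in UAC and 5.48, 1.89 and 5.58 FPKM in CON, with groups apart by a narrow margin. MSTRG.1269.1 covers the start of the gene, so the promoter is shown here from RefSeq (GRCr8, chr1:22624565-22624864, minus strand), from 250 bases before the start to 50 after it. Capitals mark TATAAA, the TATA box, and GGAATG, the core read by TEAD factors, with both strands searched and no overlap between them.
Ccn2 promoter: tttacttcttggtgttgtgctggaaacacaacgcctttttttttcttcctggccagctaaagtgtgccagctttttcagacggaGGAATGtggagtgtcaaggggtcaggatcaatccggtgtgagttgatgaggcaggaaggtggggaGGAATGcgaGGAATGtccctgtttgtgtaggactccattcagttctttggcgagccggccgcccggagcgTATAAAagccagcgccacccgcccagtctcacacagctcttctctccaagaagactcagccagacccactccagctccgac
TATAAA occurs once and GGAATG 3 times. Of 33469 RefSeq promoters of this length, 14.2% hold TATAAA, 14.2% hold GGAATG and 0.0896% hold GGAATG at least 3 times.

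Across the 3 classes, transcripts named for immunoglobulin genes were higher in UAC in a larger share than the background. Immunoglobulin heavy and light chain genes are expressed by B cells and, in large amounts, by plasma cells, and their variable segments are joined by rearrangement. There were 33 such transcripts, 15 of class j, 9 of class o and 9 of class x, identified by the descriptions and GO terms in the gene file. Of these, 12 were higher in UAC at the study's thresholds and 0 were lower, which is 36.4% against a background of 1.93%. The 33 overlap 22 gene rows and some are models of the same row, so they are not independent observations. By class, 4, 5 and 3 of the 11, 9 and 13 higher transcripts of classes j, o and x were immunoglobulin transcripts. Leaving out 1 library at a time gave 9 to 15 higher, with 1 lower without UAC library 1. Without them the count over the 3 classes was 21 higher and 19 lower, 1.39% and 1.26% of 1506. Summed over the 33, the level was 152, 142 and 113 FPKM in UAC and 37.8, 59.3 and 80.3 FPKM in CON, so every UAC library was above every CON library.

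The smallest p among them belonged to MSTRG.20648.1. MSTRG.20648.1 (class j, AABR07060994, chromosome 4, 102351036 to 102593266) was at 4.01, 4.75 and 2.66 FPKM in UAC and 0.878, 0.993 and 0.898 FPKM in CON, with a log2 fold change of 1.9 (SE 0.23, adjusted p 0.26 by limma). MSTRG.18054.1 (class j, AABR07051551) was at 5.10, 3.23 and 2.64 FPKM in UAC and 0.733, 1.12 and 1.74 FPKM in CON, and MSTRG.12419.3 (class j, AABR07027457) at 0.970, 1.39 and 0.869 FPKM in UAC and 0.341, 0.0359 and 0.139 FPKM in CON, with groups apart in both. MSTRG.18116.1 (class x, AABR07051741, chromosome 3) was at 8.24, 10.9 and 7.18 FPKM in UAC and 0.942, 1.67 and 2.50 FPKM in CON, with a log2 fold change of 2.37 (SE 0.34, adjusted p 0.27). MSTRG.24844.2, antisense to Igh-6 of the heavy chain locus on chromosome 6, was at 4, 3.89 and 4.19 FPKM in UAC and 1.57, 1.25 and 0.726 FPKM in CON, with a log2 fold change of 1.75 (SE 0.26, adjusted p 0.27). In class o, MSTRG.18098.1 (AABR07051708) was the most abundant, at 18.6, 28.7 and 21.2 FPKM in UAC and 6.25, 9.54 and 14.6 FPKM in CON. MSTRG.18102.1 (AABR07051726) was at 6.30, 5.59 and 3.80 FPKM in UAC and 0.490, 0.154 and 2.20 FPKM in CON. MSTRG.12419.5 (AABR07027457, chromosome 17) was at 6.88, 9.29 and 4.25 FPKM in UAC and 1.94, 2.19 and 0.694 FPKM in CON.

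Not every immunoglobulin transcript was higher. MSTRG.24844.1, also antisense to Igh-6, was at 8.03 FPKM in UAC library 1, at the floor in the other 2 UAC libraries, and at 4.66, 5.78 and 7.05 FPKM in CON, and MSTRG.24844.3 was at the floor in 1 library of each group. These transcripts were short, with a median of 373 bases, but spanned 453 to 362891 bases of genome, and variable segments are similar copies, so the placement of their reads is uncertain. The 22 gene rows they overlap had 14 higher and 0 lower by the study's thresholds. All 182 rows that the same descriptions and GO terms mark in the gene file had 60 higher and 0 lower. The background over 30668 genes was 1.2% higher and 0.681% lower. Most of the class j and o immunoglobulin transcripts are counted in the rows they overlap, so rows and transcripts are not separate evidence. None of these rows reached an adjusted p under 0.05 by edgeR, the smallest being 0.29. Of the B and plasma cell markers, 20 of 20 were in the gene file, with a summed level of 236 to 326 FPKM in UAC and 189 to 248 FPKM in CON. Single genes of this list with an unadjusted p under 0.05 numbered 2 higher and 2 lower in UAC, 0 had an adjusted p under 0.05 by edgeR, and the median log2 fold change was 0.08. Jchain, the joining chain of secreted antibodies, was at 132, 133 and 97.1 FPKM in UAC and 41.3, 54.0 and 70.4 FPKM in CON, and Mzb1, of antibody-secreting cells, at 7.47, 9.27 and 6.02 FPKM in UAC and 3.65, 3.83 and 4.60 FPKM in CON. Cd79a, a B cell receptor subunit, was at 9.66 to 17.9 FPKM in UAC and 12.4 to 16.1 FPKM in CON. Of the plasma cell markers that other cells also express, Sdc1 was at 23.7 to 26.4 FPKM in UAC and 27 to 30.1 FPKM in CON, and Xbp1 at 28.0 to 34.4 FPKM in UAC and 28.9 to 32.8 FPKM in CON. Of other cell type lists, the T and NK cell list had 5 of 20 genes higher and 1 lower in UAC (median log2 fold change 0.42, summed level 77.6 to 93.7 FPKM in UAC and 65.7 to 78.4 FPKM in CON), and the adipocyte list 4 of 11 higher and 0 lower (median 0.69, summed level 53.7 to 88.1 FPKM in UAC and 50.7 to 73.1 FPKM in CON), all at unadjusted p under 0.05 and with 0 adjusted calls by edgeR. Other lists went the other way at the same threshold. The bone matrix, protease and endothelium lists each had 0 genes higher and 5 lower in UAC, and the muscle list 0 higher and 4 lower. The share of all genes at this threshold was not computed, so these counts have no background beside them. In bulk cartilage more cells of a type and more RNA per cell cannot be told apart, and the part of any of these cell types in the transcripts above was not tested.

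**Figure D3:**
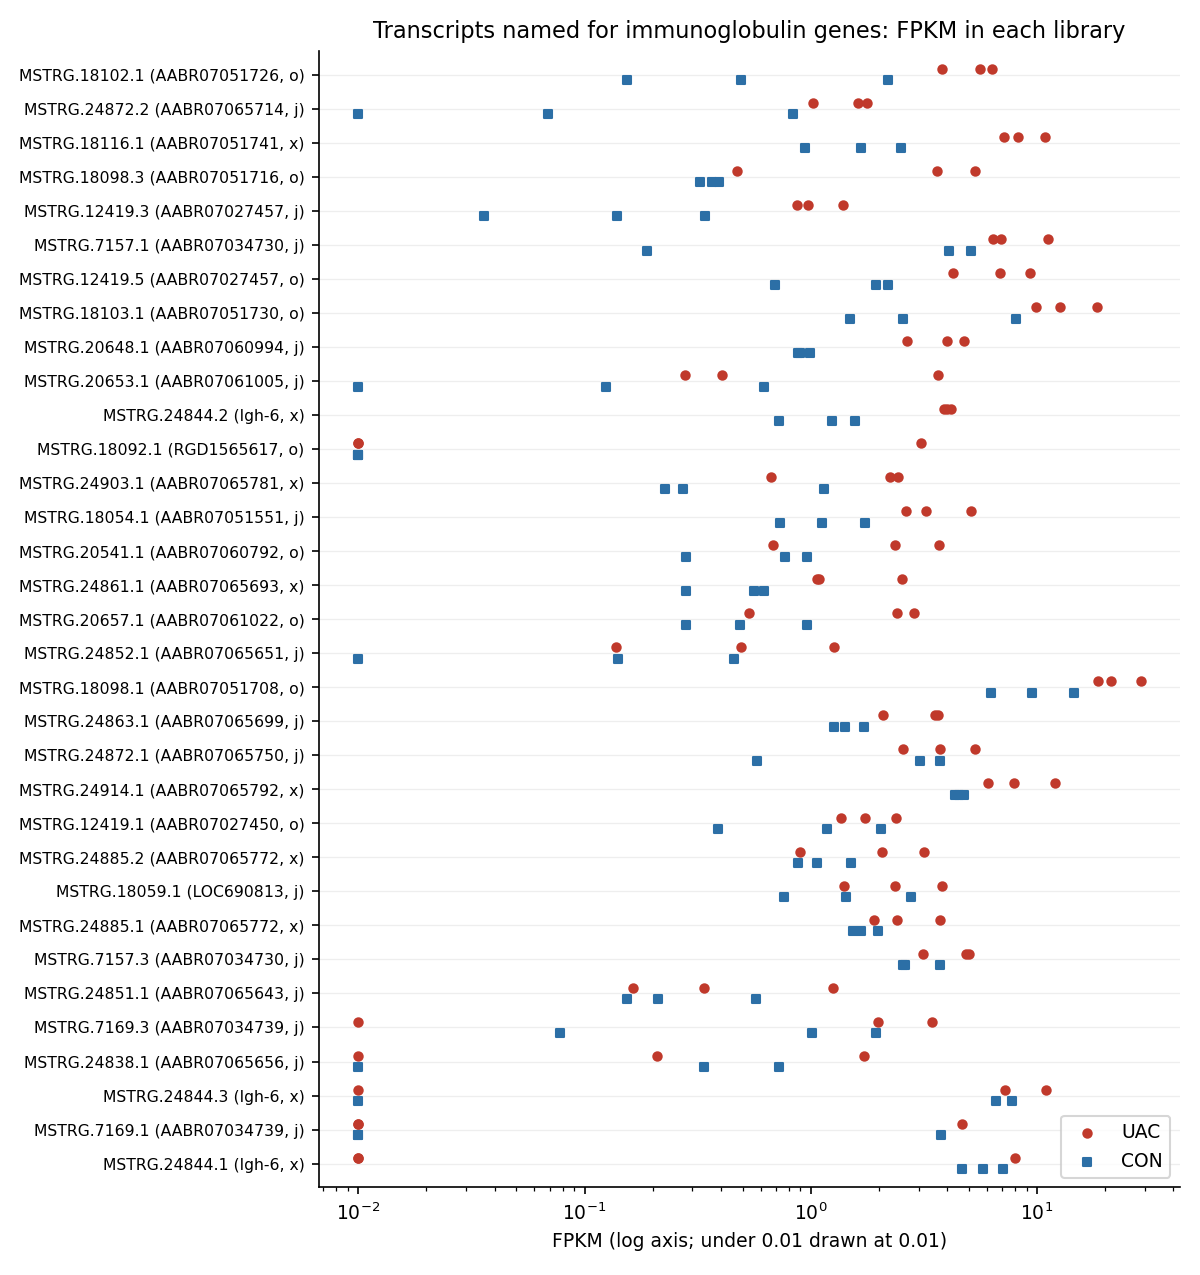
FPKM in each library (log axis) of the 33 transcripts named for immunoglobulin genes, ordered by log2 fold change, with UAC as circles above CON as squares, values under 0.01 FPKM drawn at 0.01, and the class code after the name. UAC lies to the right of CON without overlap in 15 of the 33 and CON lies to the right without overlap in 0.

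Agreement with the named gene was taken for each class apart. The sign of the change was shared by 327 of 504 class j transcripts (64.9%), 271 of 472 class o transcripts (57.4%) and 285 of 496 class x transcripts whose gene row was tested (57.5%). Transcript changes are from FPKM without further scaling and gene changes from TMM-scaled counts, so signs near 0 can depend on the scaling. MSTRG.13622.1 has nearly the same FPKM as its gene row, yet its log2 fold change was -0.21 against -0.26 for the row. The correlation across transcripts between the log2 fold change of the transcript and that of the gene was r = 0.27 (Spearman's rho 0.37) in class j, 0.12 (0.26) in class o and 0.25 (0.26) in class x. That of the levels was r = 0.59, 0.52 and 0.36 on the log2 scale. These points share libraries, many transcripts share a gene, and a class j transcript is itself counted in the gene row in 497 of 504 cases, so they are descriptions and not tests. In class o, 142 transcripts lie in the assembled gene that carries the named gene, and there 106 (74.7%) shared the sign, with r = 0.30. The other 330 with a tested gene, whose named gene is a separate row, shared it in 165 cases (50%), with r = -0.09. Class x is nearly always a separate row, in 520 of 524. A transcript alone in its assembled gene has the same FPKM as the gene row, within 1% in all libraries for 10410 of 10410 such lncRNA transcripts, which holds for 599 of the 1539.

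The transcripts mostly lay below the genes they are named for. The median level was 48.2% of the gene in class j, 48.1% in class o and 24.6% in class x where the gene reached 0.1 FPKM, and of these pairs 60, 108 and 61 transcripts lay above their gene. Under 1% of the gene were 4, 3 and 45. Named genes under 0.1 FPKM numbered 0, 39 and 28 pairs, as in the Vom2r65 and Spag6l cases above.

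**Figure D4:**
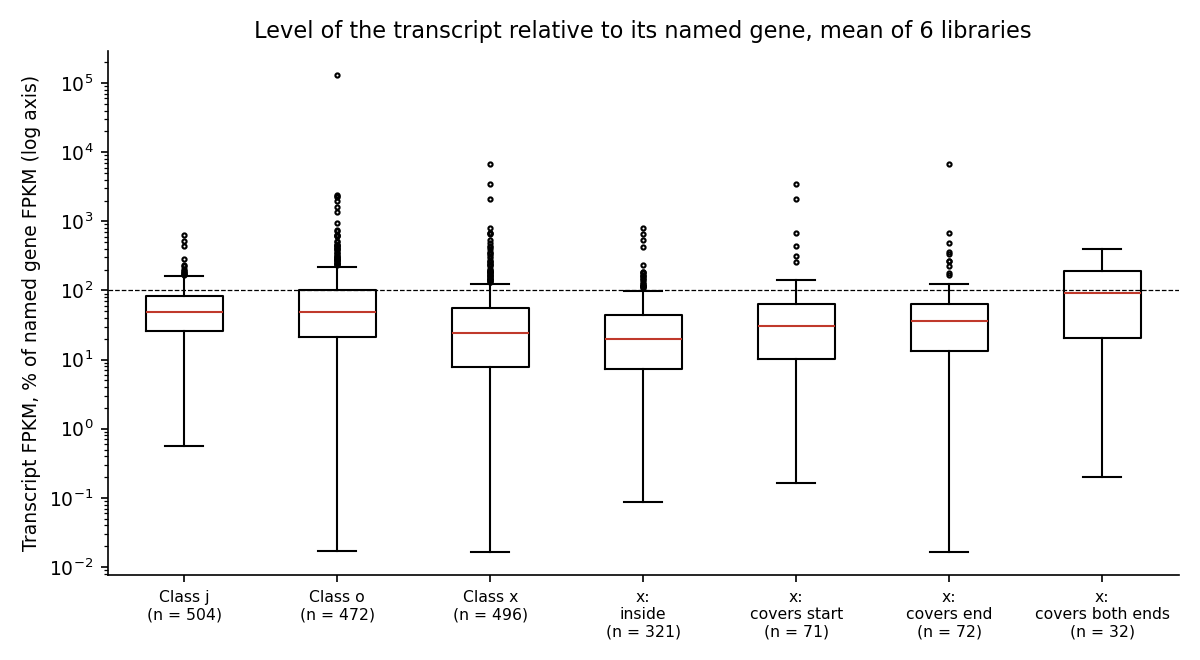
Mean FPKM of each transcript as a percentage of the mean FPKM of its named gene (log axis), for genes of at least 0.1 FPKM, by class and, for class x, by position on the gene. Boxes show the quartiles with the median as a line, whiskers reach at most 1.5 times the box, and the dashed line marks equal levels. Class x inside the gene has the lowest median line.

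The 1059 gene rows overlapped by these transcripts had 19 higher and 3 lower by the study's thresholds by edgeR, beside 1.2% higher and 0.681% lower over all genes, and of these 14 and 0 were immunoglobulin rows. Of the 52 transcripts at the study's thresholds, 12 had a gene that also met them, in all 12 cases in the same direction, and 10 of the 12 were immunoglobulin transcripts. For the 20 class j transcripts, 3 had such a gene and all 3 were immunoglobulin transcripts. These 3, and the 5 class o transcripts with such a gene, are counted in that gene row themselves, so their agreement is partly built in. For the 40 that were not immunoglobulin transcripts, 2 had such a gene, both of class x and neither among the class j or o transcripts.

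**Figure D5:**
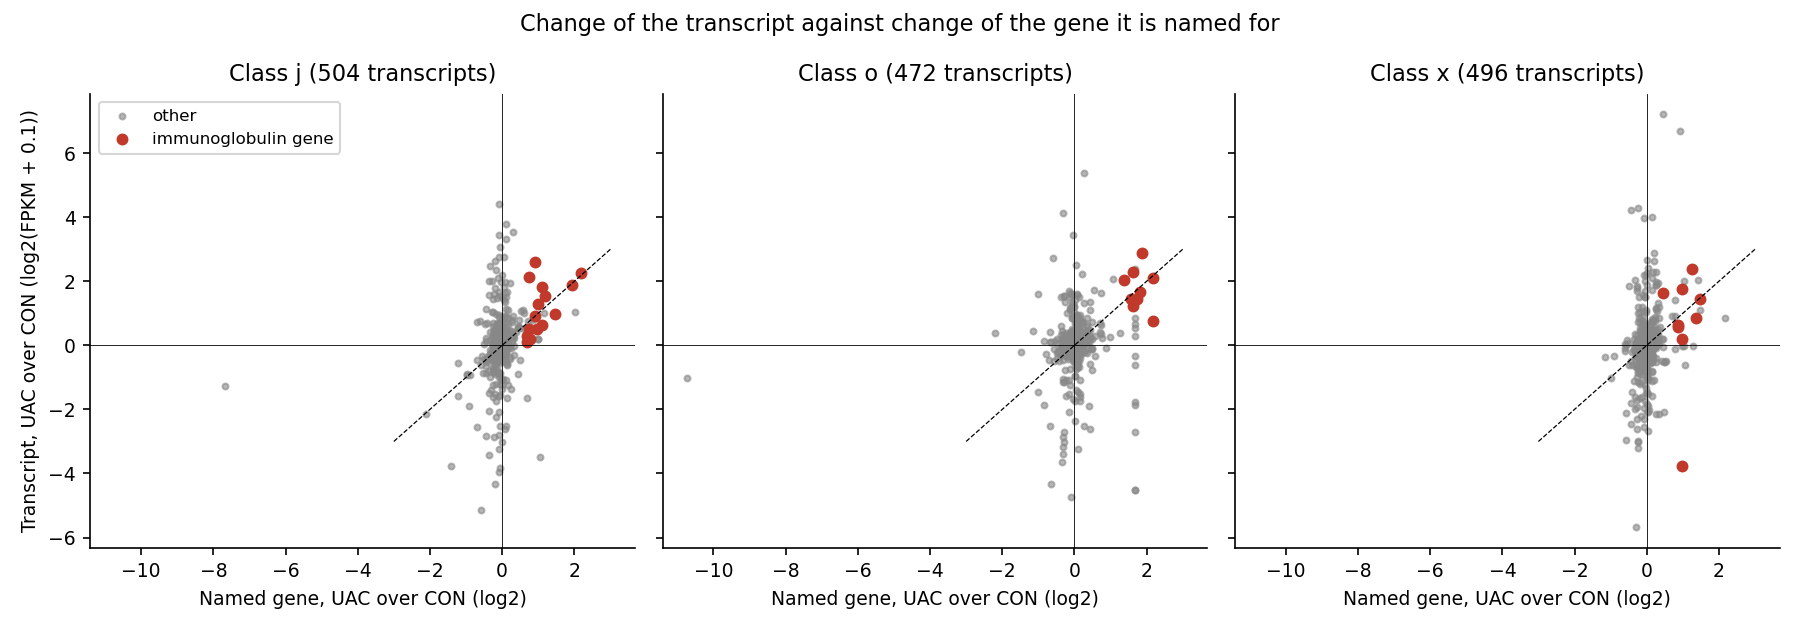
Log2 fold change (UAC over CON) of each transcript against that of its named gene, by class, with immunoglobulin genes in red and a dashed line where both are equal. Most points lie in a vertical band around a gene change of 0, while 32 of the 33 red points share the sign of their gene. Most red points of classes j and o are counted in the gene row they are set against.

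Tested directly, as the change of the transcript minus the change of the named gene in each library, 32 of class j, 29 of class o and 26 of class x had an unadjusted p under 0.05, against 7.16% of all 7239 pairs, or 6.35%, 5.68% and 4.96% of the classes. None had an adjusted p under 0.05 by limma, against 0.0691% of all pairs. This count paired genes by symbol. In class j the smallest p belonged to MSTRG.17931.3 of Fam102a, which was at 1.78, 1.55 and 1.78 FPKM in UAC and 2.43, 2.55 and 2.36 FPKM in CON, with a gene at 5.23 to 6.37 FPKM in UAC and 6.41 to 6.58 FPKM in CON. Its difference from the gene was -0.37 (SE 0.06, adjusted p 0.28). Rpp21 and Mplkip followed, with differences of 1.27 (SE 0.20) and -1.63 (SE 0.28). In class x the smallest p belonged to the Ttll13 transcript, with 2.33 (SE 0.45, adjusted p 0.44), then to MSTRG.18116.1 and to MSTRG.24943.1 of AABR07065889. MSTRG.24943.1 was at 2.79, 3.17 and 3.60 FPKM in UAC and 1.65, 1.28 and 2.11 FPKM in CON, but the row its symbol was paired with does not overlap it. The AABR07065889 row that MSTRG.24943.1 overlaps had a log2 fold change of 0.79, against 0.91 for the transcript.

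Both list members with an unadjusted p under 0.05 are from the protease and RNA processing lists. MSTRG.20877.1, a class o transcript of Adamts9, a protease of aggrecan and versican, was at 2.33, 1.98 and 2.09 FPKM in UAC and 1.65, 1.51 and 1.66 FPKM in CON. Its groups were apart at a log2 fold change of 0.38 (SE 0.15, adjusted p 0.68 by limma), while the gene was at 5.22 to 6.47 FPKM in UAC and 5.42 to 6.68 FPKM in CON. MSTRG.24388.2, a class j isoform of the splicing factor Srsf5, was at 7.17, 5.46 and 8.18 FPKM in UAC and 4.19, 4.55 and 5.51 FPKM in CON. MSTRG.19819.1 (class o) of Kmt2c, a histone H3 lysine methyltransferase, was at 3.03 to 3.50 FPKM in UAC and 2.44 to 3.07 FPKM in CON. Over genes of blood cells, MSTRG.21240.1 (class o) of the macrophage scavenger receptor Cd163 was at 3.12, 4.05 and 4.45 FPKM in UAC and 2.62, 3.89 and 2.42 FPKM in CON. MSTRG.8561.1, antisense to the start of Ptprc, the pan-leukocyte phosphatase CD45, was at 3.32, 1.93 and 1.86 FPKM in UAC and 1.07, 1.27 and 2.53 FPKM in CON. MSTRG.26988.1, antisense to the osteoclast phosphatase gene Acp5, was at 1.17, 2.27 and 1.23 FPKM in UAC and 3.96, 1.83 and 1.71 FPKM in CON. All 3 had overlapping groups. MSTRG.9947.1, a class j form of the lncRNA Tug1, was at 7.90, 8.07 and 8.18 FPKM in UAC and 7.60, 6.58 and 8.19 FPKM in CON, close to its gene row of 8.87 to 9.19 FPKM in UAC and 7.18 to 9.20 FPKM in CON.

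A few loci held many of these models. Ahnak, a giant scaffold protein gene on chromosome 1 (225184530 to 225215015), had 26, all antisense, of which 0 had an unadjusted p under 0.05. They summed to 86.8, 124 and 82.6 FPKM in UAC and 123, 108 and 86.3 FPKM in CON, although single models ranged in log2 fold change between -1.58 and 2.11. The most abundant, MSTRG.3797.37, was at 0.637, 21.6 and 9.85 FPKM in UAC and 29.9, 14.8 and 9.54 FPKM in CON, and Ahnak was at 32.2 to 34.5 FPKM in UAC and 27.2 to 31.0 FPKM in CON. The next loci had 13 each. The histocompatibility locus with RT1-T24-4 on chromosome 20 was even, its most abundant model MSTRG.16896.1 at 3.30, 2.96 and 2.79 FPKM in UAC and 2.82, 2.90 and 2.91 FPKM in CON. AC099449 on chromosome 1 summed to 34.9, 35.9 and 34.1 FPKM in UAC and 22, 31.7 and 24.8 FPKM in CON, with groups apart, and its most abundant model MSTRG.3497.2 was at 9.62, 8.16 and 10.3 FPKM in UAC and 6.30, 10.2 and 6.54 FPKM in CON. LOC680227 on the X chromosome summed to 272 to 328 FPKM in UAC and 296 to 321 FPKM in CON, while AABR07015067 with AABR07015081 on chromosome 14 summed to 1021 to 1481 FPKM in UAC and 1236 to 1510 FPKM in CON. In these loci the sums were steadier than the single models, whose log2 fold changes reached from -3.24 to 4.42 in LOC680227 and from -3.38 to 4.13 in AABR07015067 with AABR07015081.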

How the data were processed

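Per the submitters' processing notes and the study's methods, adapters were removed with cutadapt 1.9, quality was viewed in FastQC, and reads went through Bowtie2, Hisat2 and StringTie, after which expression was taken with edgeR as well. The sources used here do not name the mapper versions, the genome build, the strand setting or the program behind the class codes. For lncRNA transcripts the authors deposited FPKM, read coverage per base from StringTie, and scores of coding potential from CPC and CNCI (at most 0.494 by CPC over the assembled transcripts). For genes they deposited counts and FPKM, and a gene row takes in all transcripts of the assembled gene. Other columns and files were not used.

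lncRNA transcripts were tested with limma 3.58.1 (trend) on log2(FPKM + 0.1), genes with edgeR 4.0.16 (TMM, quasi-likelihood) on counts, and transcript minus named gene with limma on the difference of log2 values per library, each with Benjamini-Hochberg adjustment over all features tested and a threshold of 0.05. R 4.3.3, scipy 1.17.1 and matplotlib 3.10.9 were used, and the fits were tested on simulated data. The design assumed a symbol pairing: the named gene was the row with the transcript's symbol and an Ensembl transcript, protein coding first, then the highest mean FPKM. For 99 transcripts this row lay elsewhere in the genome, so gene values printed here are those of the row that overlaps.

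Named transcripts are, per class, the 5 with the smallest p in each direction at the study's thresholds with a group mean of at least 0.3 FPKM, the 5 most abundant, the 3 with the smallest p against the gene, those followed by RT-qPCR, the most abundant of the 3 loci with most transcripts, and up to 3 per gene list. Transcripts of immunoglobulin and microRNA genes, Cdv3, Ccn2, the other Rpl41 and Cox7a1 isoforms, and Ufm1 were chosen after their values were seen. The members and lists were chosen with earlier results of these data known. Another transcript just inside the FPKM minimum is not reported here.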

Additional observations from a re-analysis of the deposited data

How the results depend on the processing

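A log2 pseudocount of 1 lowered the counts at the study's thresholds to 5 higher in class j, 2 lower in class o and 8 higher in class x. The block by replicate number, an alternative since the numbers do not pair the samples (correlations of deviations between same-numbered libraries -0.0109, -0.000309 and -0.0382), gave 11 lower in class o and 6 lower named genes and changed no other count by over 1.5 times. Restricted to transcripts above 0.0001 FPKM in all 6 libraries, a choice made after seeing the data, class x had 2 lower. Leaving out 1 library at a time gave 10 to 15 higher and 7 to 13 lower in class j, 7 to 12 and 3 to 9 in class o, 8 to 15 and 3 to 5 in class x, and 13 to 22 and 3 to 6 for named genes. For transcript minus gene it gave 26 to 43, 22 to 44 and 24 to 32 at an unadjusted p under 0.05. Adjusted calls were 0 to 3 of the transcripts and 0 to 3 against the gene. Of the transcripts, without UAC replicate 1 MSTRG.13077.1 (LOC108348287), MSTRG.18454.1 (AABR07052529) and MSTRG.24844.1 (Igh-6) were called lower, without CON replicate 1 MSTRG.22385.1 higher and MSTRG.9967.1 (Uqcr10) lower, and without CON replicate 2 MSTRG.2793.1 (Serpinh1) lower. Against the gene, without UAC replicate 1 MSTRG.12955.8 (Mllt10) was called higher and MSTRG.13077.1 and MSTRG.24844.1 lower, and without CON replicate 1 MSTRG.22385.1 higher and MSTRG.7899.1 (RGD1563482) lower. The UAC minus CON differences in class share were then -1.47 to -0.0274 points in class j, -5.29 to 4.31 in class o and -0.346 to 2.17 in class x, so the class o and x differences changed sign with 1 library. Of 503 recomputed fold changes of 34 named transcripts, 428 kept their side of the thresholds, 71 lost it, 4 gained it and 0 changed direction. The cause of these shifts was not tested. Since 1 FPKM stands for about 6 to 7 reads over each base, depth limits the precision of low values, and its relation to these shifts was not tested either.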
